A study of Rattus norvegicus with 4 samples.

Results

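Electroneutral sodium chloride absorption and bicarbonate exchange are represented here by 9 genes, chosen by name with earlier results of these data known. They include the sodium-proton exchanger genes Slc9a2 and Slc9a3 and their scaffold gene Nherf1. The others are the anion exchanger genes Slc26a2, Slc26a3 and Slc26a6, and the bicarbonate transporter genes Slc4a1, Slc4a2 and Slc4a4. Of these 9 genes, 8 had a row with a single gene symbol, among 13215 genes with such a row in the series, and each of the 8 had 1 row. Slc26a6, an apical anion exchanger gene, had none and was not analysed here. RNA came from surface colonocytes, the absorptive cells facing the lumen, taken from the distal colon of 4 Wistar rats, aged 12 weeks and adrenalectomized. The 2 aldosterone rats received an injection of 50 µg per 100 g body weight and a minipump with aldosterone in PEG300 set to 10 µg per kg and hour, and the 2 vehicle rats received the vehicle by both routes. Treatment lasted 2 h and was followed by 40 min of shaking of the inverted colon, with 100 nM aldosterone for the aldosterone rats and vehicle for the others. All 4 rats lacked their adrenal glands for 4 days, drank 0.9% NaCl and ate standard chow. The adrenalectomized vehicle rats therefore stand for a hormone-depleted state and not for a normal rat. Each rat gave 1 exon array.

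In the colon, electroneutral absorption runs on a pair of exchangers in the apical membrane. A sodium-proton exchanger takes up sodium and releases a proton, while a chloride-bicarbonate exchanger takes up chloride and releases bicarbonate, and carbonic anhydrase inside the cell supplies both the proton and the bicarbonate. In rat distal colon, aldosterone is known for favouring the electrogenic route through the epithelial sodium channel over this electroneutral one. Slc9a2 and Slc9a3 encode the apical exchangers NHE2 and NHE3, and Slc26a3 encodes DRA, the main apical chloride-bicarbonate exchanger of the colon. Slc4a2 encodes AE2, an anion exchanger placed in the basolateral membrane of many epithelia.

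The proximal promoters of 3 members are shown because they carry the values described below: Slc26a2 and Slc26a3 had the smallest unadjusted p-values of the 8, and Slc9a3 had the greatest distance between rats. Each runs 5′ to 3′ over 250 bases before and 50 bases after the gene's start in RefSeq, on rat build GRCr8. Capitals mark every match, on either strand, to the corticosteroid receptor half-site AGAACA, the CCAAT box CCAAT and the GC box GGGCGG. Slc9a3 lies at chr1:30995953-30996252 on the minus strand, Slc26a2 at chr18:56936963-56937262 on the minus strand and Slc26a3 at chr6:53751165-53751464 on the plus strand.
Slc9a3: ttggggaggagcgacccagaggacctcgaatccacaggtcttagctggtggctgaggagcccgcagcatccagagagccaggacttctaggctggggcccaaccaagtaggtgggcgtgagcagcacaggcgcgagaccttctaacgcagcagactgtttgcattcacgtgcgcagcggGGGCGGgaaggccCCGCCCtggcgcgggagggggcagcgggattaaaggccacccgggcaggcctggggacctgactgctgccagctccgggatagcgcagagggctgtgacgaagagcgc
Slc26a2: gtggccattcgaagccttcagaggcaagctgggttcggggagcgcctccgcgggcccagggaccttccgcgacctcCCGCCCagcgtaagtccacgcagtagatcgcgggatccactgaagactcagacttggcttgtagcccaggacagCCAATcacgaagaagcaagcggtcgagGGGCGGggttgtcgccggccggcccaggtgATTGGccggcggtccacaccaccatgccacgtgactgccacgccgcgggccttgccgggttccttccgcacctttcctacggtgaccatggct
Slc26a3: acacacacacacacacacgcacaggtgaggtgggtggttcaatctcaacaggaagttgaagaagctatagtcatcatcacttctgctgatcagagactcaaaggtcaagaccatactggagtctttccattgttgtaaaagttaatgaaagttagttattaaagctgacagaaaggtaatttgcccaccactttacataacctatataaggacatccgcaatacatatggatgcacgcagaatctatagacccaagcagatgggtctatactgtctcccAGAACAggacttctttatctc

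Of the 9 genes, 7 had an entry in the promoter table (8 promoters, since Slc9a2 has 2 starts), with none for Slc26a6 and Slc4a1. The half-site AGAACA occurred in 1 of the 8, that of Slc26a3, with its first base at position 30 counted from the start, and in 20.7% of the 33469 rat promoters of the same length. The full corticosteroid response element, in which the half-site is followed by any 3 bases and its reverse complement, occurred in 0 of the 8 and in 0.0149% of all promoters. The TATA box letters TATAAA occurred in 0 of the 8 and in 14.2% of all promoters. The GC box occurred in 4 of the 8, against 33.1% of all promoters, and the CCAAT box in 3 of the 8, against 37.5%. Searches ran over both strands, and no position was shared between motifs in the printed sequences. The Slc26a3 promoter was the least GC-rich of the 8, at 41.7% G and C, and the others lay between 48.0% and 78.3%. These matches describe letters in a window and were not set against any measure of binding.

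Levels are the deposited log2 expression values, and differences are aldosterone minus vehicle on the log2 scale. Each mean ± SD is over the 2 rats of a group. The median of all 19403 rows ran between 2.22 and 2.44 in the 4 arrays, close to the low end of the scale, where a gene cannot be told from background by its level. Levels of different genes are not comparable on an array, so each difference is taken within a gene across rats. Words such as high, low and brightest place a value or a list mean on the array's scale and give no amount of transcript. Tests are from limma with Benjamini-Hochberg adjustment over all rows. Sgk1 and Tsc22d3, both known to be induced by corticosteroids, served as a check of the labels. Sgk1 lay at 12.54 and 12.52 in aldosterone rats against 10.51 and 10.64 in the vehicle rats, and Tsc22d3 at 10.39 and 10.44 against 7.93 and 8.20, so both hormone-treated animals stood apart as labelled. Surface colonocyte markers were high in all 4 rats. The mean over the 7 measured of 10, among them the keratin gene Krt20 and the water channel gene Aqp8, was 11.11 and 11.15 in the aldosterone rats and 10.92 and 11.05 in the vehicle rats. All 7 were higher on average with aldosterone, with a median difference of 0.15 (0.0609 to 0.19 with 1 rat left out). In 4 of the 7 the groups did not overlap, upward, against 16.7% of all rows.

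Across the 8 measured genes, Slc26a2, Slc26a3 and Slc9a2 were higher in both aldosterone rats than in either vehicle rat, while Slc4a2 and Nherf1 were lower in both. Slc9a3 was far higher in 1 aldosterone rat alone, and Slc4a1 and Slc4a4 stayed near the median of all rows. None of the 8 passed an adjusted p of 0.05 in limma (smallest adjusted p = 0.891, for Slc26a2), where 0.0% of all rows did. The check genes Sgk1 and Tsc22d3 did not pass in this fit either, at an adjusted p of 0.332 each. Failing to pass in it therefore does not show that a gene was unchanged. At an unadjusted p under 0.05 there were 2 of the 8, both higher with aldosterone, against 4.53% of all rows (2.19% higher and 2.34% lower). The share was larger among rows with a mean of 4 or more, at 523 of 4815 (219 higher and 304 lower). With a prior spread that follows the expression level, 0 of the 8 passed after adjustment, against 0.108% of all rows, and 3 of the 8 (Slc26a2, Slc26a3 and Slc9a3, the last through 1 rat) had an unadjusted p under 0.05, against 4.67% of rows. At a mean of 4 or more, 355 of 4815 rows had such a p. With this prior in limma, Sgk1 and Tsc22d3 passed after adjustment (adjusted p = 0.000558 and 0.00258). Groups did not overlap, upward, in 3 of the 8, against 16.7% of rows, and downward in 2 of the 8, against 11.1% of rows. Among the 4815 rows with a mean of 4 or more, downward was the more common, with 900 rows against 647 upward. Of the 6 members at that level, 3 were upward and 2 downward. With 2 rats per group, an exact two-sided permutation test of 1 gene cannot give a p below 0.333. In tissue RNA, fewer cells of a type and less RNA per cell cannot be told apart.

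**Figure D1:**
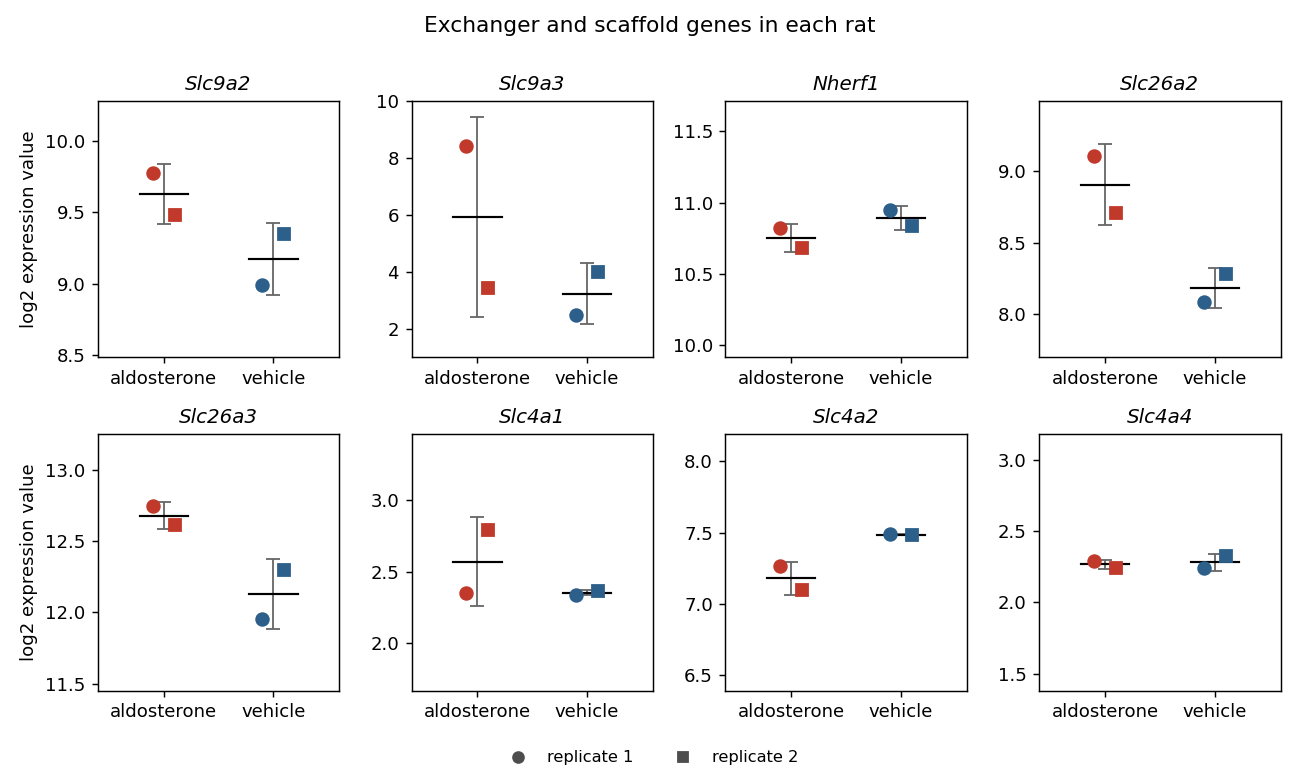
Log2 expression value of each of the 8 measured genes in each rat, aldosterone on the left and vehicle on the right, with the 2 replicates of a group as a circle and a square, the group mean as a black line and the SD (n = 2) as a bar. The axes of 7 panels cover the same span and that of Slc9a3 is wider; its aldosterone values lie at 8.39 and 3.44, while those of Slc26a2, Slc26a3 and Slc9a2 lie above both vehicle rats.

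Slc26a3, the apical chloride-bicarbonate exchanger gene, lay at 12.75 and 12.61 in aldosterone rats against 11.96 and 12.30 in the vehicle rats. Both aldosterone rats were above both vehicle rats, and the distance between the vehicle rats was the wider one, at 0.34 against 0.14 between the aldosterone rats. The mean was 12.68 ± 0.096 against 12.13 ± 0.24, a difference of 0.55 with a 95% interval from 0.11 to 0.99 (1.46-fold higher, interval 1.08 to 1.99). Its unadjusted p was 0.0254 and its adjusted p 0.948 in limma, so the difference did not survive correction over all rows. The difference stayed between 0.38 and 0.72 when each rat was left out in turn. With the prior spread that follows expression level, its unadjusted p was 0.00482 and its adjusted p 0.524.

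Slc26a2 encodes a sulfate transporter that exchanges sulfate for chloride or other anions and serves the sulfation of proteoglycans and mucins. It lay at 9.11 and 8.70 in aldosterone rats against 8.09 and 8.28 in the vehicle rats, again without overlap. The mean was 8.91 ± 0.29 against 8.18 ± 0.14, a difference of 0.72 with an interval from 0.22 to 1.23 (1.65-fold higher, interval 1.16 to 2.34). Its unadjusted p was 0.0162 and its adjusted p 0.891 in limma. Leaving out each rat in turn gave differences from 0.52 to 0.92. Both SLC26 genes thus had intervals above 0 in this fit before correction over all rows, and neither passed after it. Without a prior on the spread, both intervals included 0, at -0.24 to 1.69 for Slc26a2 and -0.24 to 1.35 for Slc26a3. The Slc26a3 interval also included 0 without rows below the median (-0.0061 to 1.11) and without rows below a mean of 4 (-0.085 to 1.19), while that of Slc26a2 stayed above 0.

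Slc9a2, which encodes the apical exchanger NHE2, lay at 9.78 and 9.48 in aldosterone rats against 8.99 and 9.35 in the vehicle rats. The groups did not overlap, but the nearest rats of the 2 groups were close together. The mean was 9.63 ± 0.21 against 9.17 ± 0.25, a difference of 0.46 whose interval, from -0.059 to 0.97, included 0 (unadjusted p = 0.0700, adjusted p = 1.00 in limma). The difference ranged from 0.28 to 0.64 with each rat left out.

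Slc9a3, which encodes NHE3, lay at 8.39 and 3.44 in aldosterone rats against 2.48 and 3.99 in the vehicle rats. The first aldosterone rat was high, and the second lay between the vehicle rats. The group means of 5.91 ± 3.50 and 3.23 ± 1.07 therefore describe no rat, and the difference of 2.68 had an interval from -2.29 to 7.65 (unadjusted p = 0.210, adjusted p = 1.00 in limma). With the prior spread that follows expression level, the interval ran from 0.33 to 5.03 (unadjusted p = 0.0285, adjusted p = 0.949). Without aldosterone replicate 1 the difference was 0.21, and without aldosterone replicate 2 it was 5.16. Without vehicle replicate 1 it was 1.93 and without vehicle replicate 2 it was 3.44, so that the value rests on which rats are kept.

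The distance of 4.95 between the aldosterone rats in Slc9a3 was the greatest of all 19403 rows. The 1.51 between the vehicle rats was matched or exceeded in 82 rows. Aldosterone replicate 1 exceeded the other 3 arrays by at least 4 in 1 row of the array, that of Slc9a3 (by 4.40). It exceeded them by at least 3 in 3 rows and by at least 2 in 6 rows, and lay below them by at least 2 in 3 rows. Aldosterone replicate 2 exceeded the others by at least 3 in 3 rows and the vehicle arrays did so in 0 rows each. By at least 2, aldosterone replicate 2 exceeded the others in 4 rows, vehicle replicate 1 in 5 and vehicle replicate 2 in 2, and these arrays lay below the others in 2, 1 and 0 rows.

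**Figure D2:**
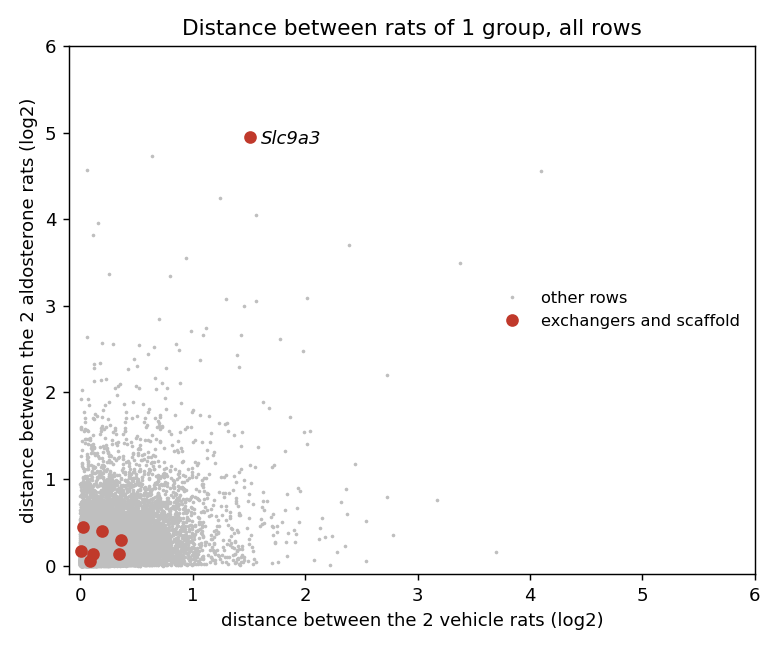
Absolute distance in log2 value between the 2 aldosterone rats (vertical) against that between the 2 vehicle rats (horizontal), with a grey point for each of 19403 rows and red points for the 8 measured exchanger and scaffold genes. Slc9a3 lies at 4.95 between aldosterone rats and 1.51 between vehicle rats, at the top of all rows, while the distances of the other 7 reach 0.44 at most.

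Nherf1 encodes the PDZ scaffold that ties NHE3 and other apical transporters to ezrin and the actin cytoskeleton. It lay at 10.82 and 10.68 in aldosterone rats against 10.95 and 10.83 in the vehicle rats. The nearest rats of the groups were almost level. The difference was -0.14 with an interval from -0.45 to 0.17 (unadjusted p = 0.287, adjusted p = 1.00 in limma), in fold terms from 0.730 to 1.13. With 1 rat left out it ranged from -0.21 to -0.0709, the smallest without aldosterone replicate 2, and it was -0.0814 without vehicle replicate 1.

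Slc4a2, the basolateral anion exchanger gene, lay at 7.26 and 7.10 in aldosterone rats against 7.49 and 7.48 in the vehicle rats. The vehicle rats differed by 0.00288, and both aldosterone rats were below them. The mean was 7.18 ± 0.12 against 7.49 ± 0.0020, a difference of -0.31 with an interval from -0.61 to 0.00056 (1.24-fold lower, unadjusted p = 0.0503, adjusted p = 1.00 in limma). With the prior spread that follows expression level, the interval widened to between -0.95 and 0.33 (unadjusted p = 0.318). The difference was -0.39 without aldosterone replicate 1 and -0.22 without aldosterone replicate 2.

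Slc4a1 and Slc4a4 gave values at the low end of the scale. Slc4a1 encodes AE1, the anion exchanger of red blood cells and of acid-secreting cells of the kidney. It lay at 2.35 and 2.79 in aldosterone rats against 2.34 and 2.36 in the vehicle rats, so that 1 aldosterone rat was higher and the other 3 rats were level. Its difference of 0.22 (interval -0.28 to 0.72, adjusted p = 1.00 in limma) became -0.00346 without aldosterone replicate 2. The same rat was the highest in the 3 rows that list only haemoglobin genes, several to a row. The brightest of them lay at 9.19 and 11.57 in aldosterone rats against 9.42 and 9.90 in the vehicle rats, and the next at 6.17 and 10.12 against 6.45 and 6.61. The erythroid marker Epb42, a red cell membrane protein gene and the 1 marker of 7 in that list with a row of its own, was level at 2.03 and 2.10 against 2.04 and 2.14. The part of red blood cells in the Slc4a1 value was not tested.

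Slc4a4, which encodes the electrogenic sodium bicarbonate cotransporter NBCe1, lay at 2.29 and 2.24 in aldosterone rats against 2.24 and 2.32 in the vehicle rats. Its mean over the 4 arrays was below the median of row means, 2.35, so no fold is given. The groups overlapped, and the difference was -0.0151 with an interval from -0.29 to 0.26 (adjusted p = 1.00 in limma).

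**Figure D3:**
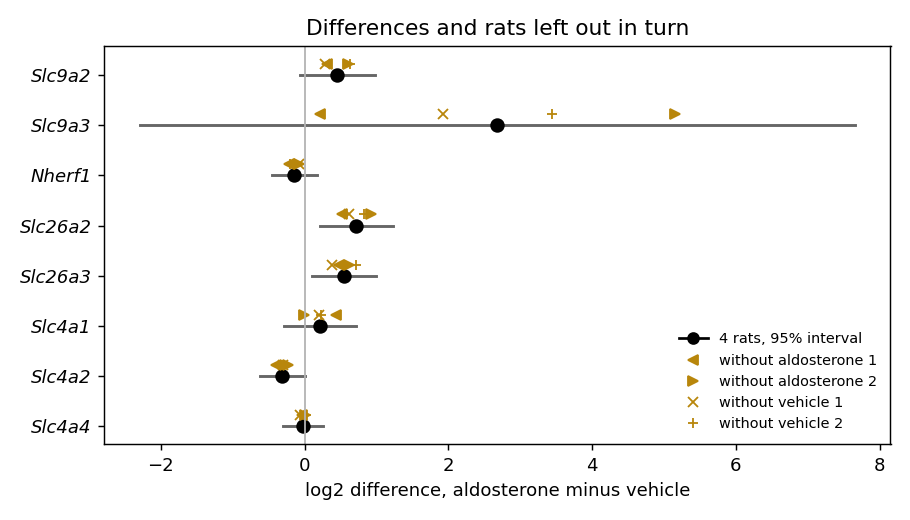
Log2 difference, aldosterone minus vehicle, for the 8 measured genes: black points with 95% intervals from limma over 4 rats, and gold marks for the difference with 1 rat left out. The intervals of Slc26a2 and Slc26a3 lie above 0, that of Slc9a3 runs from -2.29 to 7.65, and leaving out aldosterone replicate 1 moves Slc9a3 to 0.21.

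The order of the rats varied between members. Aldosterone replicate 1 was the highest of the 4 arrays in 4 of the 8 genes, Slc9a2, Slc9a3, Slc26a2 and Slc26a3, and in 19.2% of all rows. Vehicle replicate 1 was the lowest in 6 of the 8, against 43.7% of all rows. It was the highest in the other 2, Nherf1 and Slc4a2, against 18.2% of all rows. Among rows with a mean of 4 or more, these shares were reversed, at 13.9% lowest and 41.1% highest. Of the 6 members at that level, vehicle replicate 1 was the lowest in 4 and the highest in 2. Aldosterone replicate 1 was the highest in 4 of these 6, against 23.0% of rows at that level. Without vehicle replicate 1 the differences of Slc26a3, Slc26a2 and Slc9a2 were smaller, at 0.38, 0.62 and 0.28, and kept their sign. Of the 4 carbonic anhydrase genes with a mean of 4 or more, Car4 and Car2 were lowest in that rat, Car9 in aldosterone replicate 2 and Car12 in aldosterone replicate 1. The median difference of the 8 genes was 0.34, beside 0.0239 over all rows. For the 6 members with a mean of 4 or more (Slc9a3 among them through 1 rat) it was 0.50, beside -0.0405 over all rows at that level.

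Relatives of the members were mostly at the low end of the scale. Of 10 other genes of the sodium-proton exchanger family, 7 were measured, 0 passed and 6 had a mean below the median of row means, with a median difference of 0.0114 (-0.0489 to 0.0894 with 1 rat left out). The exception was Slc9a8, which encodes the exchanger NHE8, at 4.78 and 4.99 in aldosterone rats against 4.92 and 4.92 in the vehicle rats. Its groups overlapped (difference -0.0321, interval -0.36 to 0.30). Slc9a7, Slc9a4 and Slc9b2 differed by at most 0.0366 in size.

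Of 8 other SLC26 genes, 6 were measured and 0 passed, with a median difference of 0.0560. That median was 0.00611 without vehicle replicate 1, 0.12 without vehicle replicate 2 and -0.00173 with arrays centred on their medians. Slc26a11, another anion transporter gene of the family, was the one above a mean of 4, at 5.17 and 4.75 in aldosterone rats against 4.66 and 4.81 in the vehicle rats. Slc26a4, which encodes the chloride-bicarbonate and iodide exchanger pendrin, lay at 2.29 and 2.44 against 2.08 and 2.35, within the low range. Slc26a8 and Slc26a5 differed by -0.17 and 0.0563.

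The 7 other SLC4 genes were all measured and 0 passed, with a median difference of 0.0239, which ran from -0.10 without vehicle replicate 1 to 0.19 without vehicle replicate 2. Slc4a7, which encodes the electroneutral sodium bicarbonate cotransporter NBCn1, was the one above a mean of 4. It lay at 6.81 and 7.33 in aldosterone rats against 7.94 and 7.17 in the vehicle rats, with overlap, and its difference of -0.49 had an interval from -1.41 to 0.44. Slc4a5, Slc4a10 and Slc4a9 lay between 2.02 and 2.48 in every rat, with differences of 0.22, 0.0979 and 0.0686.

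Among 13 measured of 18 scaffold and regulator genes of NHE3, 0 passed with the constant prior, and Sgk1, a kinase that raises NHE3 and the epithelial sodium channel, passed with the prior that follows expression level (adjusted p = 0.000558). Nherf2, the other NHERF scaffold gene, lay at 2.84 and 2.83 in aldosterone rats against 2.53 and 2.57 in the vehicle rats. Its difference of 0.29 (interval 0.0225 to 0.55, unadjusted p = 0.0394, adjusted p = 1.00 in limma) was at levels near the median of all rows. Dpp4, a brush border peptidase known to form complexes with NHE3 in the kidney, lay at 5.08 and 4.36 against 3.77 and 4.09, without overlap (difference 0.79, interval -0.00787 to 1.59). Prkar2a, a regulatory subunit gene of protein kinase A, the kinase that inhibits NHE3, differed by 0.51 (interval -0.11 to 1.13). Pdzk1, a further PDZ scaffold gene, lay at 2.15 and 2.12 against 1.91 and 2.40, with overlap. The list's median difference was 0.12 (0.0671 to 0.16 with 1 rat left out).

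Carbonic anhydrases, which feed both exchangers with substrate, gave 8 measured genes of 10, and 0 passed. Car2, the main cytosolic enzyme, lay at 10.04 and 9.32 in aldosterone rats against 8.28 and 9.66 in the vehicle rats. Car4, the membrane-bound enzyme of the apical surface, lay at 11.69 and 11.40 against 10.92 and 11.58. Both overlapped between groups, and the vehicle rats were further apart than the aldosterone rats. Car9, a hypoxia-inducible membrane enzyme, lay at 5.25 and 4.81 against 5.27 and 6.04 (difference -0.62, interval -1.51 to 0.27). Car14 and Car5b lay between 1.86 and 2.34 in every rat. The list's median difference was 0.12, and without vehicle replicate 1 it was -0.0128.

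Partners in the apical and basolateral membranes gave 10 measured genes of 12, of which 0 passed with the constant prior and Slc12a2 passed with the prior that follows expression level (adjusted p = 0.0494). The list's median difference was 0.25 (0.14 to 0.32 with 1 rat left out), with 8 genes higher on average with aldosterone and 2 lower. Groups did not overlap, upward, in 6 of the 10, against 16.7% of all rows, and downward in 1, against 11.1%. Slc12a2, the basolateral sodium-potassium-chloride cotransporter, lay at 6.33 and 6.33 in aldosterone rats against 4.66 and 4.17 in the vehicle rats. Best2, a bicarbonate-conducting anion channel of colonic goblet cells in the mouse, lay at 3.08 and 3.95 against 2.02 and 2.02 (unadjusted p = 0.00889, adjusted p = 0.811 in limma). The goblet marker gene Zg16, which encodes a secreted lectin, was also higher in both aldosterone rats, at 6.39 and 8.06 against 5.14 and 4.45. Tff3, which encodes a secreted trefoil peptide, had values of 9.44 and 11.30 against 11.12 and 10.74, and Agr2, a disulfide isomerase gene of mucus-producing cells, at 7.69 and 8.52 against 7.89 and 7.91, both with overlap. The mean over the 3 measured of 7 goblet markers was 7.84 and 9.29 in the aldosterone rats and 8.05 and 7.70 in the vehicle rats, and the part of goblet cells in the Best2 value was not tested. Atp1b1, the beta subunit gene of the sodium pump, differed by 0.28 (interval -0.0435 to 0.61), and Cftr, the cyclic AMP-regulated anion channel gene, lay at 2.27 and 2.01 against 1.74 and 1.87, under the median of row means.

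**Figure D4:**
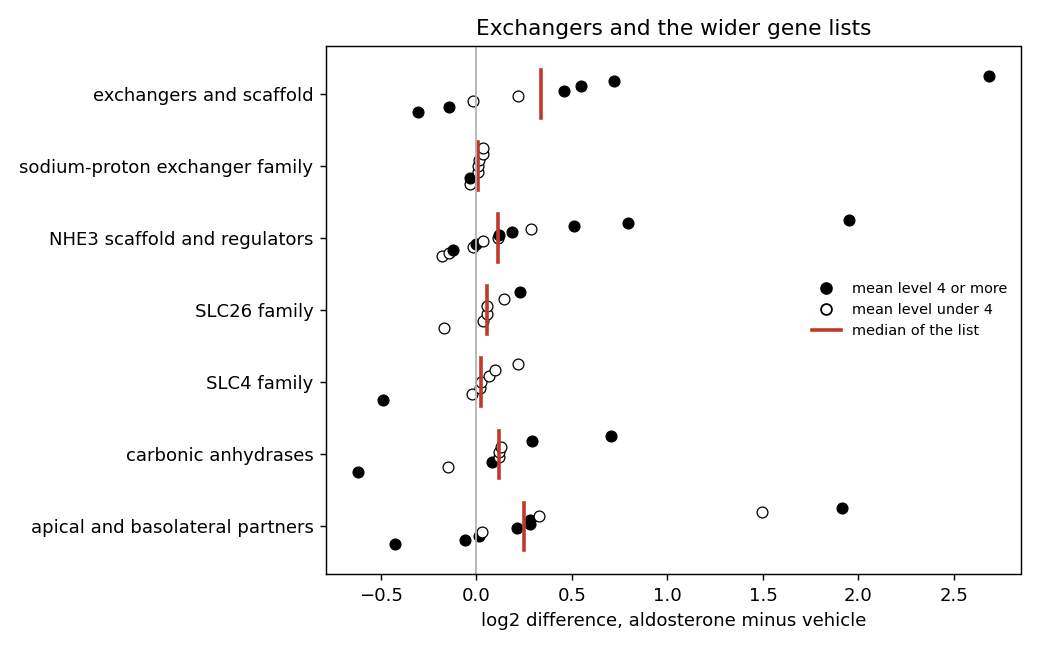
Log2 difference, aldosterone minus vehicle, for the 8 measured exchanger and scaffold genes (top) and for the 6 wider lists, with 1 point per gene, filled where the mean level is 4 or more, and a red line at the median of each list. The 3 family lists hold mostly open points near 0, and the points far to the right are Slc9a3, Sgk1, Slc12a2 and Best2.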

How the data were processed

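The deposited values were log2 expression values, 1 for each of 19403 rows and 4 arrays. RMA, Affymetrix Expression Console and Partek are named per the submitters' processing notes, without roles or versions. That the authors' values are on the log2 scale was judged from their range (1.36 to 13.7). Neither the genome build nor detection calls are stated in these sources. Per the labels, the 2 arrays of a group are biological replicates, and their number limits the precision. Of the rows, 13327 had 1 gene symbol in the platform annotation, 620 had several and 5456 were unnamed here. All 8 member rows matched RefSeq by Entrez ID. For a gene with several rows, the one of highest mean was taken.

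Aldosterone minus vehicle was fitted over all rows with limma 3.58.1 in R 4.3.3 (lmFit, eBayes, constant prior, two-sided, treatment as the only term), adjusted by Benjamini and Hochberg, with a threshold of 0.05 and 95% intervals. The fit was tested on simulated data in which spreads were shuffled across rows. The changes put in were larger than those of every member but Slc9a3, or near that of Slc9a3. The simulation therefore gives no account of changes of the size seen in the other members. Tables and plots used Python 3.11.15, pandas 2.3.3, scipy 1.17.1 and matplotlib 3.10.9. The members and lists were chosen with earlier results of these data known, so no p-value is given over a list. Named were all members, up to 4 genes per wider list by smallest unadjusted p, and a few fixed by name. Genes outside this rule that are named (Krt20, Pcna, Car12, Il1a and Srsf12) were chosen after their values were seen. Likeness between gene patterns was not computed with 4 arrays. Alternatives were quantile normalization, centring of arrays, filters on low rows, the replicate number as a block, each array left out, other priors and averaging of rows per gene. The filter at a mean of 4, and the intensity trend with the replicate block, were added after seeing the data.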

Additional observations from a re-analysis of the deposited data

How the results depend on the processing

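The 8 measured exchanger and scaffold genes gave 0 calls under each of the 15 alternatives, and 114 of 117 recomputed differences kept their sign. The filters, replicate blocks, other priors and averaging of rows cannot change a member's difference, so most of these signs were fixed in advance. Only quantile normalization, centring and leaving out an array could change a sign. The genes that changed sign, both near background, were Slc4a1 and Slc4a4. With 1 array left out, Slc4a1 had differences from -0.00346 to 0.44 (negative without aldosterone replicate 2), and Slc4a4 from -0.0567 to 0.0265. Slc4a4 was positive at 0.0265 when vehicle replicate 2 was left out, and at 0.00900 when aldosterone replicate 2 was. The members' median difference of 0.34 was 0.50 without rows below a mean of 4 (6 genes, among them Slc9a3, which reaches that mean through 1 rat), and ranged from 0.24 to 0.43 with 1 array left out. Over all rows, 0 calls became 1 without rows below the median, 12 without rows below a mean of 4, 21 with the intensity trend (a prior spread that follows the level) and 6 with that trend and the replicate block. With 1 array left out they stayed at 0, the lone array being assumed to vary like the other group.

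The replicate block with the constant prior called 0 rows and 0 members. Deviations of same-numbered arrays correlated across rows at 0.15 (all rows) and 0.0934 (mean level at least 4). With 2 pairs and no label saying so, the numbers were not taken as pairing.

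List medians moved by more than their spread in these cases, and the cause was not tested. Without rows below a mean of 4 they were 0.19 for NHE3 regulators, 0.23 for SLC26 (1 gene left), -0.49 for SLC4 (1 gene left) and -0.11 for cycling markers (also -0.11 without rows below the median). With arrays centred on their medians they were 0.0574 for NHE3 regulators (0.0565 with quantile normalization), 0.0955 for surface markers, -0.11 for muscle and fibroblast markers and -0.0462 for immune markers. Muscle and fibroblast markers had -0.14 without rows below the 25th percentile and -0.14 without those below the median, and immune markers -0.38 without the latter. With 1 array left out, medians ranged from -0.0489 to 0.0894 for sodium-proton exchangers, -0.10 to 0.19 for SLC4, -0.0128 to 0.15 for carbonic anhydrases, 0.0609 to 0.19 for surface markers, -0.0170 to 0.26 for cycling markers and -0.0636 to 0.0654 for immune markers. Where levels lie near the median of all rows, signal over background limits what can be seen.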

Other observations

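Apart from Slc9a3, the named rows in which aldosterone replicate 1 stood furthest above the other 3 arrays were Il1a, an interleukin gene, and Srsf12, a splicing factor gene. That array exceeded the next highest one by 2.99 in Il1a and by 2.32 in Srsf12, beside 4.40 in Slc9a3.

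Marker lists of several other cell types had low means in all 4 rats. Enteroendocrine markers (5 measured of 5) had means of 2.35 and 2.40 in the aldosterone rats and 2.23 and 2.42 in the vehicle rats. Muscle and fibroblast markers (4 of 6) had means of 2.37 and 2.52 against 2.45 and 2.55, and immune markers (3 of 5) 2.25 and 2.30 against 2.48 and 2.30. Glia and nerve markers (2 of 3) had means of 2.48 and 2.87 against 2.12 and 2.64. Of the crypt and cycling markers (5 of 6), Pcna, a replication factor gene, lay at 5.09 and 4.60 in aldosterone rats against 5.30 and 4.62 in the vehicle rats, and the other 4, such as Mki67 and Top2a, lay under 2.52 in every rat. The endothelial list had 0 of 3 genes measured with a single symbol.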
